A study of Arabidopsis thaliana with 4 samples.

Results

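Sulfur deficiency markers and sulfate assimilation were represented on the arrays by 5 probe sets, of 22746 that are not Affymetrix controls. AT1G04770 (probe set 261177_at), APS4 (AT5G43780, 249112_at), SIR (AT5G04590, 250846_at) and BCAT4 (AT3G19710, 257021_at) have an annotated gene. The fifth probe set was taken by its identifier alone and is given as SDI1 (AT5G48850, SULPHUR DEFICIENCY-INDUCED 1) in the selection. The annotation used here lists no gene for it and the match was not checked, so it is called the probe set given as SDI1, and the plots carry its identifier. The members were selected on their signals in DTT and control discs of these same 4 arrays, so their values are given as a description and without a test.

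The discs were cut from source leaves of wild-type Arabidopsis thaliana, accession Col-0, full-grown leaves of plants that had not flowered, sampled at the end of the night. The DTT group was kept for 1 h in the dark in 2 mM MES buffer at pH 6.5 with 5 mM dithiothreitol (DTT), a small thiol compound that enters cells and reduces disulfides, and the control group in the same buffer without it. Each group had 2 arrays described as biological replicates, named here DTT 1 and 2 and control 1 and 2, and the question was what a changed redox status does to transcript levels. How many plants gave each set of discs is not given in the sources used here. Both groups share excision, darkness and the buffer, so neither shows the intact leaf.

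Plants take up sulfate, activate it with ATP sulfurylase to adenosine phosphosulfate, reduce that to sulfite, and reduce sulfite with sulfite reductase to sulfide, which enters cysteine. Cysteine feeds glutathione and methionine, and in Arabidopsis methionine is also lengthened into the side chains of aliphatic glucosinolates, sulfur-rich defence compounds. The genes of the SDI family are known as markers that are induced when plants lack sulfur, and SDI proteins are known to hold back glucosinolate synthesis, a major sink of sulfur in the leaf.

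Every value below is a MAS5 signal, the linear brightness of 1 probe set on 1 array as deposited, and log2 changes are DTT minus control. The median signal of an array lay between 25.4 and 32.8. Of 9 hybridization control probe sets, which report transcripts added to each labelled sample, the median ratio was 1.48 for DTT 1 over DTT 2 and 1.69 for control 1 over control 2. For DTT over control it was 0.964 in replicate 1 and 1.05 in replicate 2. The arrays thus differed more by replicate number than by treatment in these controls, and changes are given within each replicate number as well as overall. The mesophyll gene RCA, Rubisco activase, had signals of 3808.7 and 2999.4 in DTT discs, against 4077.4 and 2751.6 in control discs. The guard cell regulator FMA had 26.0 and 31.6 in DTT discs, against 31.4 and 23.8 in control discs. Both overlapped between the groups, and their part in the values below was not tested. Of the other listed markers of mesophyll, guard cells, epidermis, phloem and root, none had a probe set of its own in the annotation.

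The members given as sulfur deficiency markers were lower in DTT discs, whereas the members that encode enzymes lay slightly or moderately higher. AT1G04770 was 7.04-fold lower and the probe set given as SDI1 5.09-fold lower on the mean of the log2 scale. Both DTT signals of the probe set given as SDI1 lay under the level of the filter on low signals, and its log2 change of -2.35 shrank to -0.62 with a pseudocount of 64. BCAT4 was 1.53-fold higher, APS4 1.12-fold higher and SIR 1.09-fold higher. The groups overlapped for APS4 and SIR, whose mean changes were no larger in size than the differences between their controls. Each of the 5 moved the same way in both replicates, as did 51.3% of all 13648 probe sets tested. There were only 2 arrays a group, which bounds the precision of all of these values, and in whole discs fewer cells of a type cannot be told apart from less RNA per cell.

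**Figure D1:**
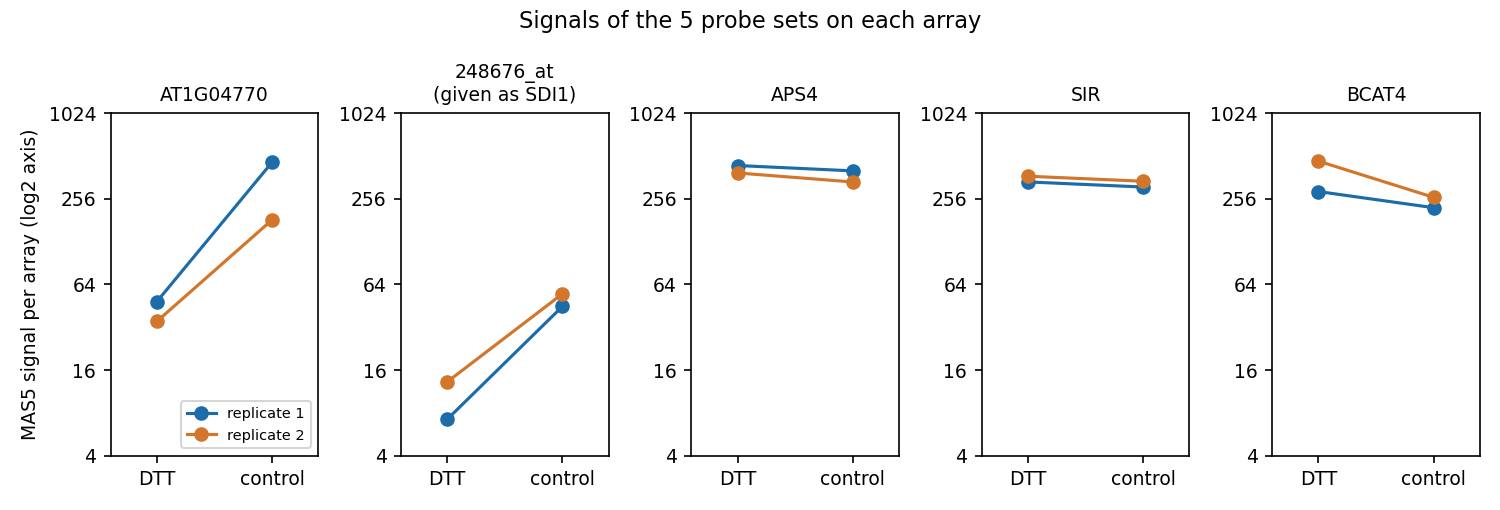
MAS5 signal (log2 axis) of each of the 5 members on each array, with DTT left of control and a line joining arrays of the same replicate number. AT1G04770 and the probe set given as SDI1 sit well below their controls in DTT discs, BCAT4 sits above its controls, and the DTT and control points of APS4 and SIR overlap in height.

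AT1G04770, given as an SDI1-like gene in the selection, had signals of 48.3 and 35.1 on arrays DTT 1 and 2, against 461.8 and 181.7 on arrays control 1 and 2. Both DTT arrays lay below both control arrays, and the lower control still had a signal far above the higher DTT array. Such an order, with both DTT arrays below, was seen for this gene and for the probe set given as SDI1 among the members and for 9.81% of the probe sets tested (1339 of 13648). The group means were 41.7 ± 9.33 in DTT discs and 322 ± 198 in control discs (SD, n = 2 each), so the controls were spread much more widely than the DTT arrays.

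The replicates of AT1G04770 differed less among DTT discs than among control discs. The ratio of array 1 to array 2 was 1.38 in DTT discs and 2.54 in control discs. Its log2 change was accordingly larger in replicate 1, at -3.26 or 9.56-fold, than in replicate 2, at -2.37 or 5.18-fold (mean -2.81, SD 0.63, n = 2). Without control 1 the mean was -2.14 and without control 2 it was -3.49, so the size rests on which control array is used. Among the 13648 tested probe sets this fall ranked 4 in replicate 1 and 13 in replicate 2, counted from the largest fall. The gene was selected on these same values, so the ranks describe it and are no test.

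The probe set given as SDI1 had signals of 7.2 and 13.2 on arrays DTT 1 and 2, against 44.8 and 54.9 on arrays control 1 and 2. Here the controls were close together and both DTT arrays lay below both of them. The means were 10.2 ± 4.24 in DTT discs and 49.8 ± 7.14 in control discs (SD, n = 2 each). The log2 change was -2.64 in replicate 1, or 6.22-fold, and -2.06 in replicate 2, or 4.16-fold (mean -2.35, SD 0.41, n = 2). It ranked 9 and 23 among the falls. These ranks rest on DTT signals under the filter level and on the values used to select the member.

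Both DTT signals of the probe set given as SDI1 lay under 16.9, the signal level of the filter on low means, and both control signals lay above it. The probe set passed that filter through its controls, and the files used here hold no detection calls. The size of its difference therefore depends on how low signals are treated. On the log2(signal + 16) scale the change was -1.33 and on the log2(signal + 64) scale -0.62, while AT1G04770 had -1.77 on the log2(signal + 64) scale. The plot of members under each setting shows this shrinkage beside the brighter APS4, SIR and BCAT4, which moved little with a pseudocount.

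**Figure D2:**
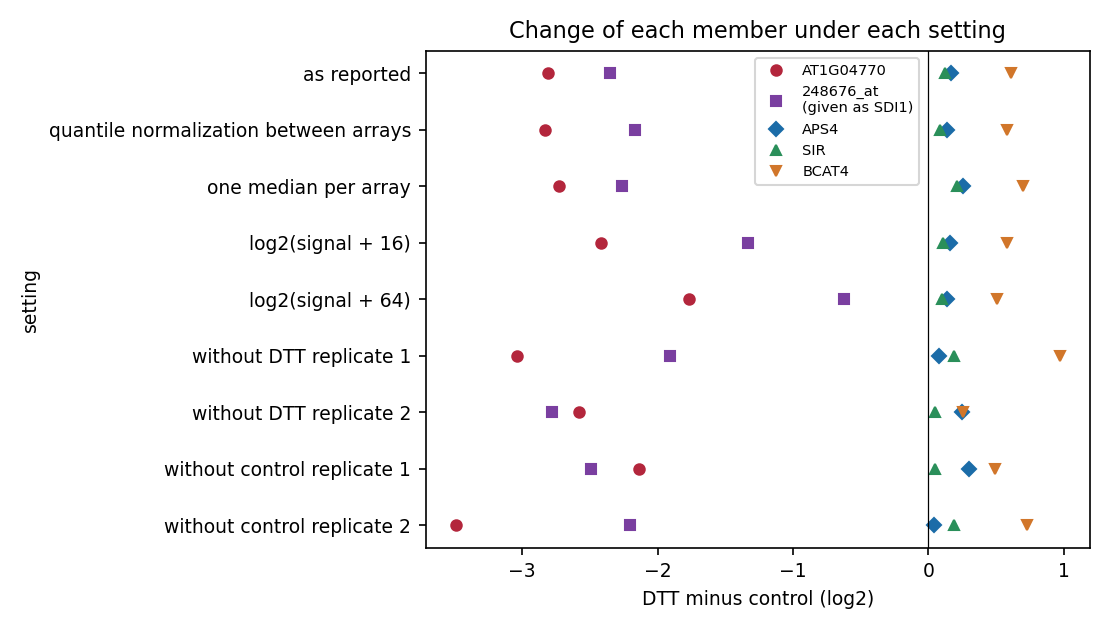
Log2 change, DTT minus control, of each member (symbols) as reported and under each alternative normalization, pseudocount or left-out array (rows). AT1G04770 lies between -3.49 and -1.77 and the probe set given as SDI1 between -2.78 and -0.62, and APS4, SIR and BCAT4 lie above 0 in each row.

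AT1G04770 and the probe set given as SDI1 shared the direction of the fall, which follows from their selection on these arrays, but not the whole pattern. The falls were near in size on the log2 scale as reported. With log2(signal + 64) they were -1.77 for AT1G04770 and -0.62 for the probe set given as SDI1. In log2 units, array 1 exceeded array 2 of the same group by 0.46 in DTT discs and 1.35 in control discs for AT1G04770. For the probe set given as SDI1 the same differences were -0.87 in DTT discs and -0.29 in control discs, the opposite sign. For comparison, the median size of that difference over all tested probe sets was 0.51 between the DTT arrays and 0.43 between the control arrays.

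Of the enzymes of sulfate assimilation, APS4, an isoform of ATP sulfurylase, had signals of 437.7 and 388.1 on arrays DTT 1 and 2, against 401.4 and 335.3 on arrays control 1 and 2. DTT 2 lay below control 1, so the groups overlapped. The means were 413 ± 35.1 in DTT discs and 368 ± 46.7 in control discs (SD, n = 2 each), and the log2 changes were 0.12 and 0.21 in replicates 1 and 2. The mean change of 0.17 was smaller than the difference of 0.26 between the controls.

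SIR, the sulfite reductase that delivers sulfide for cysteine, had signals of 335.7 and 368.1 on arrays DTT 1 and 2, against 309.0 and 339.3 on arrays control 1 and 2. DTT 1 lay below control 2, so the groups overlapped here too. The log2 change was 0.12 in each replicate, about the size of the difference between the 2 control arrays (-0.13, control 1 minus control 2). SIR was among the steadiest transcripts on these arrays, with an SD of 0.10 log2 units over the 4 arrays. Only 4.15% of the tested probe sets had a smaller one, and for APS4, with an SD of 0.16, the share was 11.6%. The median over tested probe sets, which include far dimmer ones, was 0.35, and no comparison at like brightness was made.

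BCAT4, the aminotransferase that opens methionine chain elongation for aliphatic glucosinolates, had signals of 287.3 and 470.1 on arrays DTT 1 and 2, against 221.2 and 261.6 on arrays control 1 and 2. Both DTT arrays lay above both controls, an order seen for BCAT4 alone among the members and for 8.01% of the probe sets tested (1093 of 13648). The means were 379 ± 129 in DTT discs and 241 ± 28.6 in control discs (SD, n = 2 each).

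DTT 2 carried most of the difference in BCAT4. Its log2 change was 0.38 in replicate 1, or 1.3-fold, and 0.85 in replicate 2, or 1.80-fold (mean 0.61, SD 0.33, n = 2), which ranked 1726 and 169 among the rises. Without DTT 2 the change was 0.26, and without DTT 1 it was 0.97. The plot of changes in each replicate places APS4 and SIR inside the main cloud of probe sets. BCAT4 lies within the cloud in replicate 1 and towards its upper side in replicate 2. AT1G04770 and the probe set given as SDI1, selected on these same arrays, lie well outside.

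**Figure D3:**
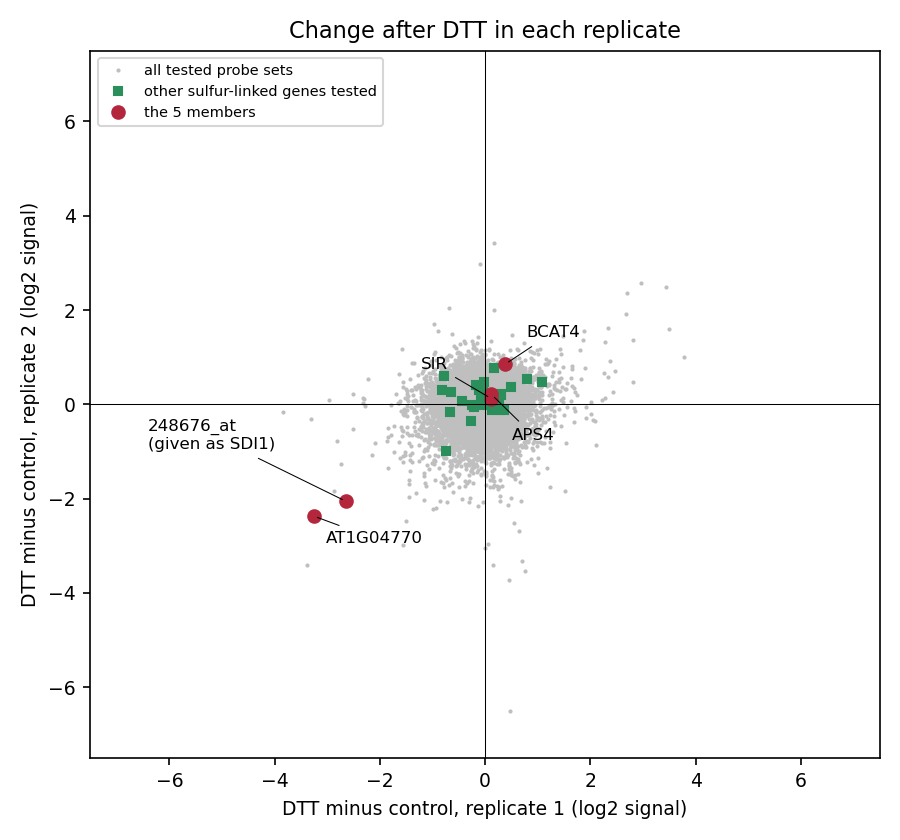
Log2 change, DTT minus control, in replicate 1 (x axis) and replicate 2 (y axis) for all 13648 tested probe sets (grey), other sulfur-linked genes (green squares) and the 5 members (red circles). AT1G04770 at -3.26 and -2.37 and the probe set given as SDI1 at -2.64 and -2.06 lie far from the cloud at lower left. They were selected on these same arrays. No other sulfur-linked gene tested lies near them, but BGLU28, AT3G51280 and AT5G44330 were not tested and are not shown.

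The closest match over the 4 arrays, for both AT1G04770 and the probe set given as SDI1, was BGLU33, a beta-glucosidase gene. Likeness was measured as the root mean square distance between log2 signals centred on each probe set's own mean, over tested probe sets with 1 annotated gene, and all of them share the same arrays. BGLU33 had signals of 49.4 and 59.9 in DTT discs, against 362.9 and 213.7 in control discs, at a distance of 0.40 from AT1G04770 and 0.43 from the probe set given as SDI1.

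The next 4 for AT1G04770 were AT5G25450, BGLU40, AT2G47550 and AT1G74010, at distances from 0.66 to 0.78. The next 4 for the probe set given as SDI1 were AT3G62810, AT5G16980, AT1G22830 and UGT76E1, at distances from 0.53 to 0.58. For each of these both DTT arrays lay below both controls. This follows from choosing them by likeness to members that were themselves lower in DTT discs. AT5G16980 passed the filter through its controls, at 34.8 and 23.9, while its DTT signals of 8.2 and 13.5 lay under 16.9. The distance between AT1G04770 and the probe set given as SDI1 was 0.78. This put the probe set given as SDI1 at place 10 of 13647 seen from AT1G04770, and AT1G04770 at place 64 seen from the probe set given as SDI1, with probe sets without a gene included.

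The profile of BCAT4 varied less over the arrays (SD 0.47 log2 units, against 1.73 for AT1G04770 and 1.41 for the probe set given as SDI1). Distances from BCAT4 tend to be smaller, and they are not set against those of the other members. The 5 nearest to it with 1 annotated gene, AT1G20580, AT1G72820, AT5G13090, AT4G38900 and AT1G60010, lay at distances from 0.06 to 0.08. Their signals were all higher in DTT discs within each replicate, with mean log2 changes from 0.53 to 0.69. Being chosen for likeness to BCAT4 on these arrays fixes that direction and rough size.

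The genes that neighbour the members on the chromosome, with order and gene spans taken from the RefSeq table, were dim or not measured next to the members whose spans they overlap. AT5G43770, whose gene span overlaps that of APS4 in that table, had signals of 14.0 and 10.2 in DTT discs, against 13.1 and 9.6 in control discs. IKU2, a receptor kinase gene whose span overlaps that of BCAT4, had 11.5 and 1.3 in DTT discs, against 16.5 and 2.6 in control discs. All signals of these 2 neighbours lay below the filter level and overlapped between the groups. VAMP726, which overlaps AT1G04770, had no probe set of its own in the annotation.

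Other genes of sulfur metabolism showed no change that passed the test. Of 119 listed loci for sulfate transport, sulfate activation and reduction, cysteine, glutathione, methionine, glucosinolates, branched-chain aminotransferases, sulfolipids, the SDI family and further deficiency markers, 15 had a probe set of their own in the sparse annotation and 10 passed the filter. Limma called 0 of these 10 higher and 0 lower at an adjusted p under 0.05 without a block, where 0% of all tested probe sets were called, and 0 had an unadjusted p under 0.05, against 0.696% of all. The smallest adjusted p of any tested probe set in that fit was 0.9999, so its adjusted values do not separate one gene from another. With replicate number as a block it again called 0 of 10, against 0.923% of all tested probe sets (126 of 13648), and 2 had an unadjusted p under 0.05, against 8.0% of all. The median log2 change of the 10 was 0.09, against -0.01 over all tested probe sets. With a block and a stricter filter on low signals HMT1 alone was called.

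Within sulfate activation, the only other gene measured was APS3, a further ATP sulfurylase isoform. It had signals of 659.7 and 365.7 in DTT discs, against 544.0 and 398.0 in control discs, a log2 change of 0.28 in replicate 1 and -0.12 in replicate 2. Unlike for APS4, the replicates had opposite signs, and its groups overlapped widely. In glutathione turnover GGCT2;3, of the gamma-glutamyl cyclotransferase family that breaks down glutathione, had a mean log2 change of 0.02.

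The methionine branch held the lowest mean log2 change among the tested pathway genes outside the members. HMT1, a homocysteine S-methyltransferase that makes methionine from S-methylmethionine, had signals of 50.7 and 74.5 in DTT discs, against 84.6 and 148.9 in control discs. Both DTT arrays lay below both controls, by -0.74 in replicate 1 and -1.0 in replicate 2 on the log2 scale, but the mean of -0.87 did not pass the test (limma adjusted p = 0.9999, or 0.096 in the fit with replicate number as a block). MMT, which makes S-methylmethionine, had 0.12, CBL, cystathionine beta-lyase, had 0.10, and MGL, a methionine gamma-lyase that degrades methionine, had -0.02.

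Downstream of BCAT4, 3 genes of aliphatic glucosinolate synthesis passed the filter and had mean log2 changes from 0.14 to 0.66. UGT74B1, a glucosyltransferase of the glucosinolate core pathway, had signals of 180.6 and 220.6 in DTT discs, against 104.8 and 153.2 in control discs. Both DTT arrays lay above both controls, as for BCAT4, with log2 changes of 0.79 and 0.53, and the mean did not pass the test (limma adjusted p = 0.9999, or 0.309 in the blocked fit). UGT74C1, a related glucosyltransferase, had a mean of 0.23 and GSTU20, a glutathione transferase linked to this pathway, 0.14. GSTU20 differed far more by replicate number than by treatment, with signals of 64.8 and 219.6 in DTT discs, against 59.5 and 197.9 in control discs.

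BCAT5, another branched-chain aminotransferase, had a log2 change of -0.81 in replicate 1 and 0.31 in replicate 2, whereas both were above 0 for BCAT4. Of the SDI family, AT3G51280 had signals of 12.1 and 10.1 in DTT discs, against 12.0 and 8.2 in control discs. AT5G44330 had at most 1.3 on any array. BGLU28, a beta-glucosidase gene known as a sulfur deficiency marker, had 1.6 and 3.6 in DTT discs, against 2.9 and 5.8 in control discs. These 3 lay below the filter level on every array and were not tested, so no other listed deficiency marker could be set beside AT1G04770 and the probe set given as SDI1.

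**Figure D4:**
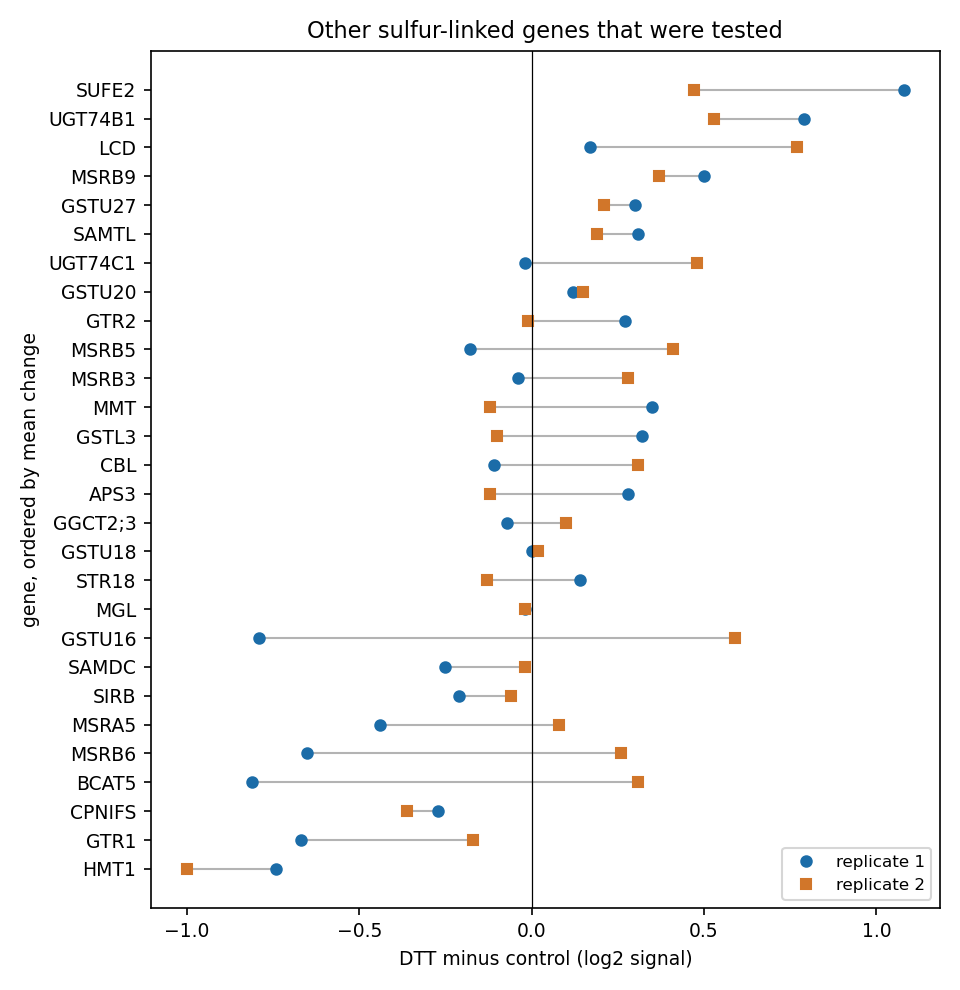
Log2 change, DTT minus control, in replicate 1 (circles) and replicate 2 (squares) for each other sulfur-linked gene that was tested, ordered by the mean. HMT1 lies lowest at -0.74 and -1.0, SUFE2 highest at 1.08 and 0.47, and none of those plotted passed the test in the fit without or with a block.

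A further 26 sulfur-linked genes were listed after the annotation had been read, of which 18 passed the filter. Limma called 0 of them higher or lower without a block, against 0% of all tested probe sets, and 0 with the block, against 0.923%. An unadjusted p under 0.05 was found for 0 of 18 without a block, against 0.696% of all, and for 2 with it, against 8.0% of all. Their median log2 change was 0.06. SIRB, the enzyme that makes the siroheme cofactor of SIR, had signals of 126.4 and 120.6 in DTT discs, against 146.6 and 125.8 in control discs, which overlapped as for SIR. CPNIFS, the plastid cysteine desulfurase, had a mean log2 change of -0.32 with both DTT arrays below both controls. LCD, annotated as an L-cysteine desulfhydrase, had signals of 48.7 and 47.8 in DTT discs, against 43.3 and 28.0 in control discs, a mean log2 change of 0.47 with both DTT arrays above both controls. STR18, of the sulfurtransferase family, had a mean log2 change of 0.00. SUFE2, of the SufE family that activates such desulfurases, had 0.77, with 1.08 and 0.47 in the replicates, and overlapped between the groups (limma adjusted p = 0.273 with the block). It differed more by replicate number than by treatment, with signals of 123.3 and 26.1 in DTT discs, against 58.5 and 18.8 in control discs.

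The glucosinolate transporter genes GTR1 and GTR2 had mean log2 changes of -0.42 and 0.13. GTR1 had signals of 768.2 and 1780.0 in DTT discs, against 1223.4 and 2007.7 in control discs, which overlapped. The 5 methionine sulfoxide reductase genes, whose products repair oxidized methionine, lay between -0.20 and 0.44, and only MSRB9 had the same sign in both replicates. MSRB9 differed far more by replicate number than by treatment, with signals of 412.3 and 67.1 in DTT discs, against 290.8 and 52.0 in control discs. Of 12 glutathione transferase genes, 4 passed the filter and lay between -0.10 and 0.26. The rest did not reach the filter level on their mean and were not tested. Their mean log2 changes lay from -1.32 for GSTU22 to -0.04 for GSTU26, and low signals make these sizes and signs uncertain. The replicates had opposite signs for GSTU28, GSTU21 and GSTU25, and GSTU26 had 0.00 and -0.08. GSTU22, GSTU23, GSTU15 and GSTF4 were below 0 in both. The share of falls among all probe sets under the filter was not taken. SAMDC, which commits S-adenosylmethionine to polyamines, had -0.13, and SAMTL, annotated as an S-adenosylmethionine transporter-like gene, had 0.25 with both DTT arrays above both controls.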

How the data were processed

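Biotin-labelled RNA of the leaf discs was measured on 4 Affymetrix ATH1 arrays, 1 per sample. The authors deposited 1 linear intensity (signal) per probe set and array, and the submitters' processing notes name MAS5. Its version and settings are not stated there, and no detection calls were used. The mean of the deposited signals, with 2% trimmed from each tail, was 100 on each array, so a change of total mRNA cannot be seen. The sample titles gave the groups and the replicate numbers. Signals of 0 were set to 0.1 and log2 was taken.

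Of 22746 probe sets, the 13648 whose mean log2 signal reached the 40th percentile (4.08) went into limma 3.58.1 (lmFit, then eBayes with a variance trend, R 4.3.3) with Benjamini-Hochberg adjustment at 0.05. All 5 members passed this filter. The fits were tested on simulated data. The fit with replicate number as a block leaves 1 residual degree of freedom. Plots were drawn with matplotlib 3.10.9 in Python 3.11.15.

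The annotation gives 1 gene for 13513 probe sets, several for 503 and none for 8730. Only those with 1 gene were named, by matching gene identifiers to the RefSeq table (13436 matched). The members and lists were chosen with earlier results of these data known. Named were the members, every tested pathway gene of the first lists up to 4 per list or those called, and the 5 nearest patterns. Genes of the added lists and those below the filter were picked for their role. P-values measure only the spread between these arrays. The alternatives tried were one median per array, quantile normalization, pseudocounts of 16 and 64, other filters, no variance trend, a block for replicate number, and fits without each array in turn.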

Additional observations from a re-analysis of the deposited data

How the results depend on the processing

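In fits with no block, 0 probe sets passed under each normalization, pseudocount, filter and variance setting, and 0 to 3 did when 1 array was left out (3 without DTT 1). With the replicate block 126 passed. Joined with the block the count was 42 with log2(signal + 16), 72 with quantile normalization, 3 with no filter on low signals, 35 with no mean-variance trend and 176 with the filter at the 60th percentile; the cause was not tested. No label states that arrays of one number belong together. The log2 difference of array 1 and array 2 in DTT discs correlated at 0.746 with the same difference in control discs, across tested probe sets. Of the listed pathway genes, 0 were called under each setting except the block with the filter at the 60th percentile, where 1 was. For the added genes 0 were called with or without the block.

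The block leaves the log2 changes of the members as they are. For AT1G04770, the probe set given as SDI1 and BCAT4 the arrays of the groups do not overlap, so neither a pseudocount nor leaving out an array could turn the sign. AT1G04770 had -1.77 with log2(signal + 64), and -3.49 to -2.14 when 1 array was left out. For the probe set given as SDI1 the change was -1.33 with log2(signal + 16), -0.62 with log2(signal + 64), and -2.78 to -1.91 without single arrays. APS4 had 0.26 with one median per array and 0.04 to 0.30 without single arrays. SIR had 0.09 with quantile normalization, 0.21 with one median per array, 0.11 and 0.10 with the pseudocounts of 16 and 64, and 0.05 to 0.19 without single arrays. BCAT4 had 0.26 to 0.97 without single arrays. With 1 array left out, the groups no longer hold the same replicate numbers, and the spread comes from the pair of the other group alone, so the lone array is assumed to vary like that pair. Signals below the filter level limit how well the difference of the probe set given as SDI1 is measured.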
